A study of Mus musculus with 14 samples.

Results

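The genes described are 10 members of 2 growth-factor systems of the growth plate: the insulin-like growth factor (IGF) genes Igf1, Igf2, Igf1r, Igfbp2, Igfbp4, Igfbp5 and Igfbp6, and the C-type natriuretic peptide genes Nppc, Npr2 and Npr3. They are 10 of the 21887 protein-coding genes of the RefSeq table of GRCm38.p6. Their chromatin was read from every peak that overlapped a gene span extended by 5 kb on each side, called the extended span below. Of the 170889 peaks in 12 lists, 158 did.

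The cells were ATDC5, a mouse line derived from a teratocarcinoma that forms cartilage nodules in dense culture. Day 0 cells were undifferentiated and kept by passaging, while cells of days 3 and 10 were plated as dense droplets and treated with β-glycerophosphate and L-ascorbate-2-phosphate. Chromatin immunoprecipitation with sequencing (ChIP-seq) was done on each day with a rabbit antibody against H3K4me3, trimethylated lysine of histone H3 that marks promoters in use or held ready, and with a mouse antibody against RUNX2, a transcription factor required for osteoblasts and for hypertrophy of chondrocytes. Each antibody and day had 2 libraries, here replicates 1 and 2, and the 2 input libraries of the 14 samples were not analysed here. All groups are of 1 cell line, and no label ties a replicate to a culture of its own, so the spread between replicates may be technical.

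IGF1 and IGF2 are secreted ligands that signal through the receptor tyrosine kinase IGF1R and promote the growth of chondrocytes and of the skeleton. IGF-binding proteins hold most of the extracellular ligand and release it when proteases cut them. C-type natriuretic peptide, made from Nppc, binds the guanylyl cyclase receptor NPR2, and the cGMP formed there restrains FGFR3 signalling and lengthens growing bones. NPR3 has no cyclase domain and clears the peptide from the surroundings of the cell.

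List length varied between H3K4me3 libraries, with 13765 and 20863 peaks in replicates 1 and 2 of day 0, 28653 and 26781 in those of day 3, and 15219 and 29022 in those of day 10. The 2 short lists, replicate 1 of day 0 and replicate 1 of day 10, also had the highest floor of the caller's background, 3.59 and 3.15 fragments against 0.60 to 1.14 in the other 4 lists. A peak missing from them is therefore a peak not called at that background, and the part of list length and background in the day differences was not tested. Of 11 chondrocyte genes checked, 3 had H3K4me3 at a transcript start in both libraries on day 0 and 9 on days 3 and 10, beside 49.1, 56.7 and 53.3% of all genes on the 3 days. Of 7 genes of mature chondrocytes 1, 4 and 5 had it on days 0, 3 and 10, and of 4 osteoblast genes 2 (Sp7 and Alpl) had it in all 6 lists. Markers of pluripotent cells (0 of 4), skeletal muscle (0 of 4) and adipocytes (0 of 3) had it in no list. Of other cell types, endothelial cells had 1 of 4 markers (Kdr), blood cells had 2 of 4 on days 3 and 10 (Cd4 and Spi1) and neurons had 0 of 4 in both libraries.

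The 2 RUNX2 lists of day 3 carried the mark of a single set of ChIP reads. The number of fragments at a summit could be recovered from the authors' fold enrichment and p-value. Of the 16859 peaks of the shorter list, 8992 (53.3%) had their summit at the same base as a peak of the other list, and all 8992 had the same number of fragments. In the 15 pairs of H3K4me3 lists, 0.138 to 0.497% of the summits of the shorter list were shared. The median background at the shared summits was 9.83 fragments in replicate 1 and 6.09 in replicate 2, so that the lists differ in the background they were called against. RUNX2 on day 3 is therefore counted as 1 library with 2 calls, and agreement between those calls is no replication.

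Promoter sequences are shown for the receptor gene Igf1r, for Igfbp5, which had the widest H3K4me3 domain among the 10 genes, and for the ligand gene Nppc, because peaks reached the bases before their starts in different numbers of lists. Each is the 250 bases before the transcript start, from RefSeq (GRCm38.p6), printed 5′ to 3′ on the strand of the gene with every CG dinucleotide in capitals. Igf1r lies at chr7:67952007-67952256 on the plus strand, Igfbp5 at chr1:72874866-72875115 on the minus strand and Nppc at chr1:86670574-86670823 on the minus strand.
Igf1r: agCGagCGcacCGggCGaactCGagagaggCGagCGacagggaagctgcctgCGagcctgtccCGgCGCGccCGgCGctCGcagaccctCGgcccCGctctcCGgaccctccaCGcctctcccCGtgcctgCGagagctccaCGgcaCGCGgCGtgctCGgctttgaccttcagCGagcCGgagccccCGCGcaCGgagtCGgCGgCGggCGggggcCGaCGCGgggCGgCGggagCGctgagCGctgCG
Igfbp5: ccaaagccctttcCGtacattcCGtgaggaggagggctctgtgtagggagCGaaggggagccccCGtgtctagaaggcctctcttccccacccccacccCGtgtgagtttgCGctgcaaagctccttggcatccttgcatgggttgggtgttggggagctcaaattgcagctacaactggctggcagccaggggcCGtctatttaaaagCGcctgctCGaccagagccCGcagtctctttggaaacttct
Nppc: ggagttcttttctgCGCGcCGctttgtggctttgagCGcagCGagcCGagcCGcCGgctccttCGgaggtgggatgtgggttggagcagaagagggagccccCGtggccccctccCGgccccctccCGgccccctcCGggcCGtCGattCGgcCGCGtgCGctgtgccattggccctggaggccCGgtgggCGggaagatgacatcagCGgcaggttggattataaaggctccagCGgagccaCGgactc
The Igf1r stretch held 42 CG dinucleotides, that of Nppc 24 and that of Igfbp5 10. H3K4me3 peaks reached the Igf1r stretch in 6 of 6 lists, that of Igfbp5 in 5 and that of Nppc in 3. RUNX2 peaks of day 3 reached it in both calls at Igf1r, in 1 call at Igfbp5 and in neither at Nppc.

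Over 300 bases, from 250 before to 50 after a start, the 14 annotated starts of the 10 genes ranged from 2 to 48 CG dinucleotides, and the median of 21263 windows of protein-coding genes was 13.0. Igf1r was the highest, followed by Nppc with 29 and Igfbp4 with 27, and Igf1 and Npr3 had 6 each. The core motif of the RUNX family was searched as TGTGGT and, for the other strand, ACCACA, which are reverse complements of each other. It was in 0 of the 14 windows and in 3183 (15%) of the 21263. A missing match says only that these letters were not in the windows. The Npr2 window alone held a RUNX2 summit, 154 bases before the start at base 43631781 in both calls. The 30 bases around it, chr4:43631767-43631796 on the plus strand, are printed with the summit base in capitals.
Npr2: cggcccgatcagctGtgaggtgtccccggg
The deposited summits of the other 8 genes with RUNX2 peaks lay outside the 300-base windows.

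All 10 genes had H3K4me3 within the extended span in both libraries of day 3, where 64.3% of all protein-coding genes did. On day 0 the count was 7 of 10 (54.8% of all genes) and on day 10 it was 9 of 10 (59.4%). The genes without a peak in both libraries of day 0 were Igf2, Igfbp4 and Nppc, each with a peak in replicate 2 and none in replicate 1, a pattern found at 7.43% of all genes. On day 10 Nppc was the gene missing from replicate 1 (8.10%). No member met the definition of a gain, a peak in neither library of the earlier day and in both of the later, from day 0 to day 3 (0 of 10, 3.23% of all genes), and none was lost from day 3 to day 10 (0 of 10, 0.576%). These counts turned on single libraries: without replicate 2 of day 0, Igf2, Igfbp4 and Nppc counted as gained (3 of 10), and without replicate 2 of day 10, Nppc counted as lost. Within 1 kb of a transcript start the counts in both libraries were 6 of 10 on day 0 (49.1%), 10 of 10 on day 3 (56.7%) and 9 of 10 on day 10 (53.3%). The further gene without a peak there on day 0 was Igfbp5, whose replicate 1 peaks both lay inside the gene.

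The length of the extended span covered by H3K4me3 peaks, the covered length, was greater in both day 3 libraries than in both day 0 libraries at 7 of 10 genes: Igf2, Igf1r, Igfbp4, Igfbp5, Igfbp6, Nppc and Npr2. The share was 52.6% over all genes. The shares of all genes in this paragraph include the 28.6% with no H3K4me3 peak in any list, where the covered length was 0 throughout. All 10 members had peaks, and each share would be higher among genes with a peak. With the covered length taken as a share of its list's total, 2 of the 7 remained higher, Igf2 and Igfbp4, and Npr3 was lower. With equal numbers of top peaks from each list 4 were higher: Igfbp2, Igfbp6, Nppc and Npr2. No gene had all day 10 values below all day 3 values (0 of 10, 13.6% of all genes), and 3 genes, Igf2, Igfbp4 and Npr2, had all day 10 values above all day 0 values (14.4%). Against day 3, all 10 genes were lower on day 10 when its replicate 2 was left out and 4 were higher when its replicate 1 was left out. The median log2 ratio of day means over the 10 genes was 0.77 for day 3 over day 0, beside 0.59 over 13527 genes with values on both days. It was -0.27 for day 10 over day 3, as over all genes, and 0.58 for day 10 over day 0, beside 0.30 over 13465 genes. These differences were not tested: an exact permutation of 2 against 2 libraries cannot go below 0.33, and no model was fitted to the lengths.

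**Figure D1:**
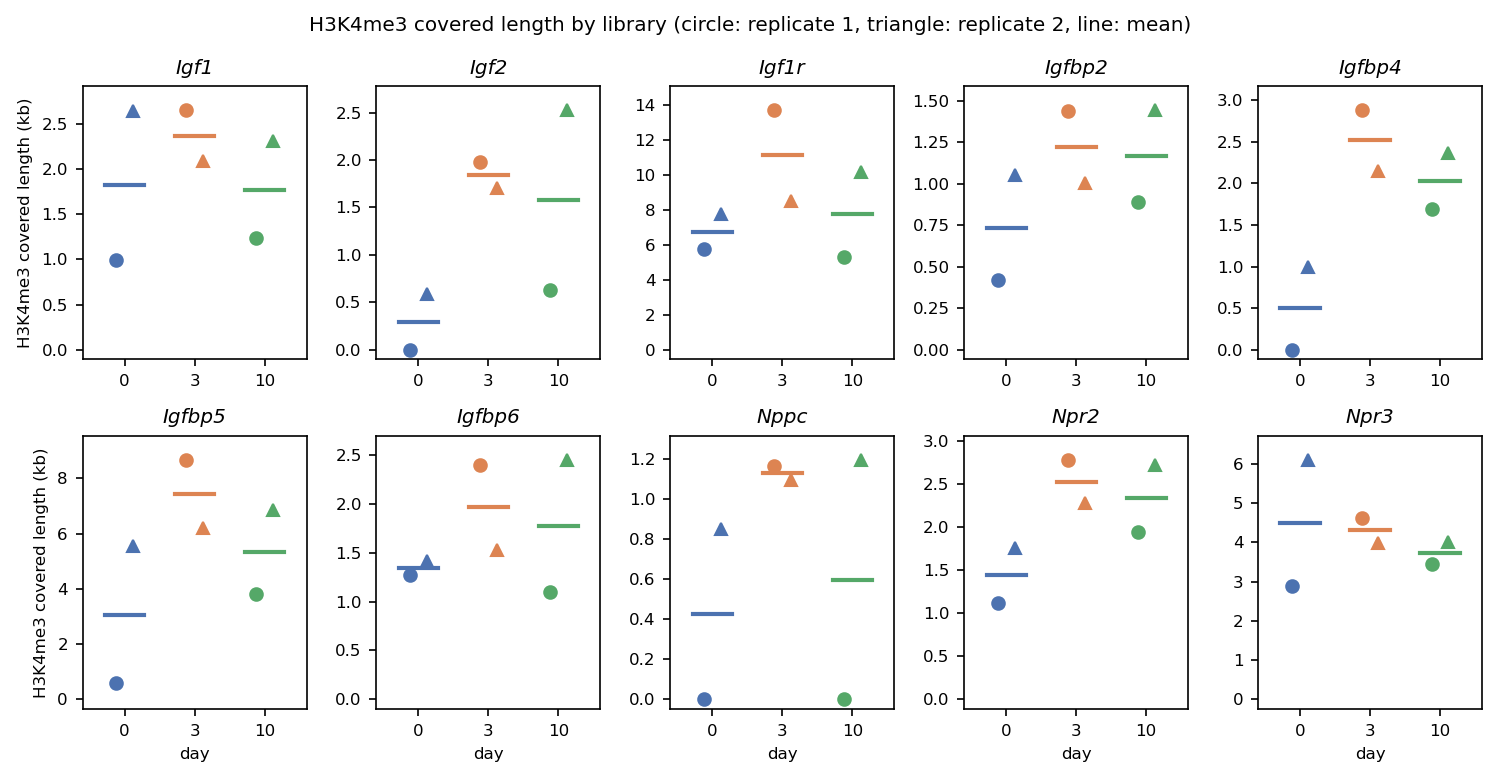
Covered length in kb (vertical axes, each gene on its own scale from 0) of H3K4me3 peaks in the extended span of each gene on days 0, 3 and 10. Circles are replicate 1, triangles replicate 2 and lines their mean. At 7 of the 10 genes both day 3 points lie above both day 0 points, and at Nppc the circles of days 0 and 10 lie at 0.

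Igf1 and Igf2, the ligand genes, differed in how their starts were marked. Igf1, which encodes the main postnatal ligand, lies on chromosome 10 from 87858265 to 87937047 and had a start peak in all 6 lists. Its covered length was 992 and 2645 bp on day 0 (replicates 1 and 2), 2654 and 2085 bp on day 3 and 1233 and 2311 bp on day 10, so the days overlapped. The fragments at the summit of its start peak numbered 22 and 25 on day 0, 41 and 34 on day 3, then 28 and 46 on day 10. Both day 3 values were above both day 0 values, and the day 10 values lay on either side of those of day 3. Fragment numbers carry the depth of their library, for which they are not corrected. Ranked by −log10 q in its own list, the Igf1 start peak was at percentiles 5.70 and 69.9 on day 0. On day 3 it was at 65.4 and 68.4, which overlapped day 0. The share of all genes with such a difference in fragments was not counted.

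Igf2, the fetal growth factor expressed from the paternal allele, spans chromosome 7 from 142650768 to 142666816 and has 4 annotated starts. Its main H3K4me3 stretch lay around the start at 142658804. The covered length was 0 and 586 bp on day 0, 1977 and 1701 bp on day 3 and 632 and 2529 bp on day 10. Each day 3 and day 10 library had more than each day 0 library, and the day 10 libraries lay far apart. The peaks were weak. The strongest start peak had 10 fragments in replicate 2 of day 0, 18 and 10 on day 3, then 16 and 21 on day 10, with a −log10 q between 5.05 and 14.6. A second stretch of 617 bp, at chr7:142660322-142660938, whose edge lay 333 bp from the start at 142661271, had a peak in neither day 0 library, in both day 3 libraries and in replicate 2 of day 10. No H3K4me3 peak reached the 250 bases before the starts at 142657496, 142661271 and 142666816 in any list.

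The receptor gene Igf1r covers 281 kb of chromosome 7, from 67952257 to 68233668, and had the most peaks of the 10 genes. Its start lay under wide H3K4me3 peaks of 2877 and 4472 bp on day 0, 5645 and 4271 bp on day 3 and 4130 and 5326 bp on day 10, all wider than 98.8% or more of the peaks of their lists. The covered length over the whole gene was 5740 and 7740 bp on day 0, 13702 and 8513 bp on day 3 and 5298 and 10159 bp on day 10. Both day 3 values exceeded both day 0 values, and the day 10 values lay on either side of day 0.

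Away from the start, Igf1r held 10 further stretches with H3K4me3, all inside the gene. The stretch centred 177.3 kb downstream of the start, at chr7:68128603-68130435, had a peak in all 6 lists, with 32 and 27 fragments at the summit on day 0, 60 and 39 on day 3, then 42 and 46 on day 10. The stretch 70.1 kb downstream had a peak in both libraries of days 0 and 3 and in replicate 2 of day 10. Stretches at 21.4, 102.6 and 196.6 kb had none on day 0, a peak in both day 3 libraries and, on day 10, in replicate 2 only. Over the 102.6 kb stretch the summits held 29 and 22 fragments on day 3 and 39 in replicate 2 of day 10. The other 5 stretches were each in 1 or 2 lists. For the stretches from 102.6 kb on, the nearest annotated start was that of Gm51487, a predicted gene inside Igf1r.

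**Figure D2:**
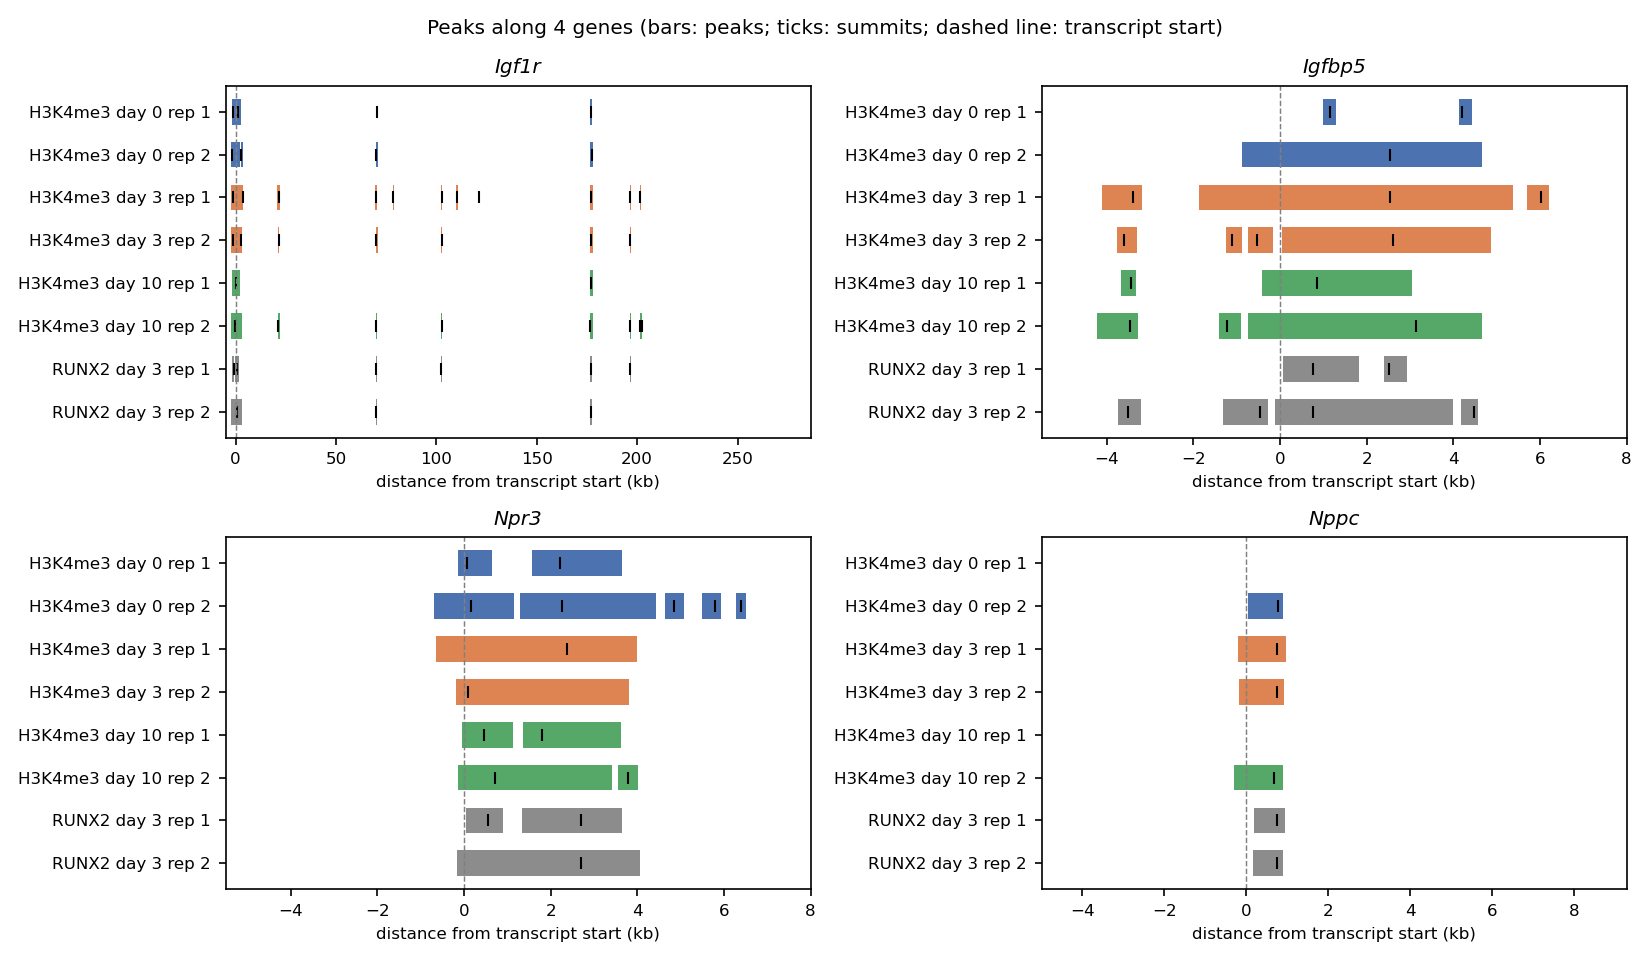
Peaks (bars) and their summits (black ticks) along Igf1r, Igfbp5, Npr3 and Nppc, by list, with distance from the transcript start in kb on the horizontal axis and the direction of transcription to the right. H3K4me3 is coloured by day and RUNX2 is grey. The Igf1r stretches at 21.4, 102.6 and 196.6 kb are empty on day 0, and the Nppc row is empty in replicate 1 of days 0 and 10.

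Among the binding proteins, Igfbp4 and Igfbp5 had their start peak in 5 of the 6 H3K4me3 lists and Igfbp2 and Igfbp6 in all 6. Igfbp4, a largely inhibitory binding protein that the protease PAPP-A cuts, lies on chromosome 11 from 99040005 to 99052655. Its covered length was 0 and 996 bp on day 0, 2884 and 2155 bp on day 3 and 1690 and 2363 bp on day 10, and each later library exceeded each day 0 library. The 2 day 0 peaks of replicate 2 were weak, with 14 and 10 fragments at their summits and −log10 q of 3.58 and 2.53. At the start, replicate 1 of day 3 had a peak of 2153 bp with 41 fragments at the summit, and replicate 2 had peaks of 1567 and 588 bp with 25 and 22 fragments.

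Igfbp5, a binding protein that adheres to extracellular matrix and is made by many skeletal cells, lies on chromosome 1 from 72858065 to 72874865. It had 590 and 5552 bp covered on day 0, 8673 and 6222 bp on day 3 and 3814 and 6864 bp on day 10. The 2 day 0 libraries lay far apart, so the higher day 3 values stand beside a wide spread, a mean of 3071 ± 3509 bp (SD, n = 2) on day 0 and 7448 ± 1733 bp on day 3. In replicate 1 of day 0 the domain was represented by 2 peaks of 295 bp inside the gene. In replicate 1 of day 3 it was a single peak of 7241 bp, wider than 99.8% of the peaks in its list, and the widest peak was 5552 bp in replicate 2 of day 0, 4817 bp in replicate 2 of day 3, 3470 bp in replicate 1 of day 10 and 5416 bp in replicate 2 of day 10. A separate stretch 3.7 kb upstream of the start, at chr1:72878051-72879086, was without a peak on day 0 but had one in all 4 libraries of days 3 and 10. It was the only stretch of the 10 genes with that pattern. Its summits held 25 and 15 fragments on day 3 and 14 and 28 on day 10. The −log10 q was 22.0 and 4.56 on day 3 and 3.64 and 12.1 on day 10. At a −log10 q of at least 5 the stretch was therefore not gained.

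Igfbp2, which lies beside Igfbp5 on chromosome 1, from 72824480 to 72852474, had 417 and 1052 bp covered on day 0, 1436 and 1004 bp on day 3 and 889 and 1443 bp on day 10. The 1004 bp of day 3 fell below the 1052 bp of day 0, so those days overlapped. At its strongest start peak the summit held 18 and 17 fragments on day 0, 39 and 30 on day 3, then 28 and 27 on day 10. In that measure, uncorrected for depth, days 3 and 10 were above day 0 in every library. Ranked by −log10 q in its own list, the peak was at percentiles 13.0 and 52.3 on day 0 and 64.0 and 71.9 on day 3. On day 10 it was at 22.9 and 52.0, which overlapped day 0. The share of all genes with such differences was not counted. Igfbp6, which binds IGF2 in preference to IGF1, lies on chromosome 15 from 102144186 to 102149512. Its covered length was 1266 and 1409 bp on day 0, 2398 and 1523 bp on day 3 and 1095 and 2446 bp on day 10. The summit held 36 and 29 fragments on day 0, 40 and 40 on day 3, then 47 and 47 on day 10.

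The natriuretic peptide gene Nppc lies on chromosome 1 from 86666293 to 86670573. It was the member with the fewest H3K4me3 peaks, 1 peak in each of 4 lists and none in replicate 1 of day 0 or of day 10. The covered length was 0 and 854 bp on day 0, 1169 and 1098 bp on day 3 and 0 and 1198 bp on day 10. The summits, all inside the gene, held 18 fragments in replicate 2 of day 0, 31 and 29 on day 3 and 26 in replicate 2 of day 10. Day 3 was the only day with a peak in both libraries. The −log10 q of the peaks was 10.7 on day 0, 32.0 and 17.6 on day 3 and 11.3 on day 10. In the list's own ranking these peaks were near the middle, with percentiles of −log10 q from 43.5 to 58.1.

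Npr2, encoding the receptor that makes cGMP, lies on chromosome 4 from 43629015 to 43651437 and had a start peak in all 6 lists. Its start peak was 652 and 1284 bp wide on day 0, 2020 and 1475 bp on day 3 and 1331 and 1928 bp on day 10. The summit held 21 and 21 fragments on day 0, 50 and 45 on day 3, then 51 and 56 on day 10. No day 0 value reached a day 3 or day 10 value in either measure, and neither measure is corrected for depth. Ranked by −log10 q in its own list, the start peak was at percentiles 22.5 and 59.4 on day 0 and 76.1 and 74.4 on day 3. On day 10 it was at 47.4 and 70.9, which overlapped day 0. The share of all genes with such differences was not counted. The extended span of Npr2 also took in, just inside its limit, a peak at chr4:43655637-43657278, which lies at the start of the neighbouring gene Hint2 and was in all 6 H3K4me3 lists. It adds to the covered length of Npr2, which was 1116 and 1763 bp on day 0, 2781 and 2276 bp on day 3 and 1940 and 2726 bp on day 10. Of the peaks just outside an extended span, the nearest lay 1861 bp beyond that of Igfbp6, at the start of Spryd3, and the next lay 5999 bp beyond that of Npr3 and 7637 bp beyond that of Npr2.

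Npr3, encoding the clearance receptor, lies on chromosome 15 from 11839896 to 11907837 and was the member whose covered length had the lowest ratio of day 3 to day 0. It was 2887 and 6098 bp on day 0, 4626 and 3992 bp on day 3 and 3446 and 4017 bp on day 10, and the day 0 libraries enclosed all others. The log2 ratio of day 3 over day 0 was -0.06. 3 short peaks between 4.9 and 6.4 kb downstream of the start were in replicate 2 of day 0 only. The strongest start peak held 22 and 28 fragments on day 0, 46 and 34 on day 3, then 43 and 46 on day 10. The 46 fragments of replicate 1 of day 3 stood 2383 bp inside the gene, where replicate 1 of day 0 had a separate peak with 35 fragments, so the summit heights of days 0 and 3 overlapped over the domain. In both libraries of day 3 the domain was a single peak, of 4626 and 3992 bp, which began near the start and ran into the gene. The domain also overlapped the neighbouring gene Gm5144, whose start was the nearest annotated start to the 3 short peaks. Its H3K4me3 and RUNX2 peaks were not divided between Npr3 and Gm5144.

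Joined over the 12 lists, the peaks of the 10 genes formed 31 stretches. H3K4me3 was in all 6 lists at 9 of the 31 (26.2% of 42888 such stretches in the genome) and in a single list at 11 (51.1%). From day 0 to day 3, 5 of the 31 were gained (7.25%): 1 at Igf2, 3 inside Igf1r and 1 upstream of Igfbp5, all outside the main start peak. Of these 5, 1 was in both day 10 libraries (18.6% of all 3108 gained stretches) and 4 were in replicate 2 only (65.0%). None of the 5 was gained when equal numbers of top peaks were taken from each list, and 2 of the 5 were gained at a −log10 q of at least 5.

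**Figure D3:**
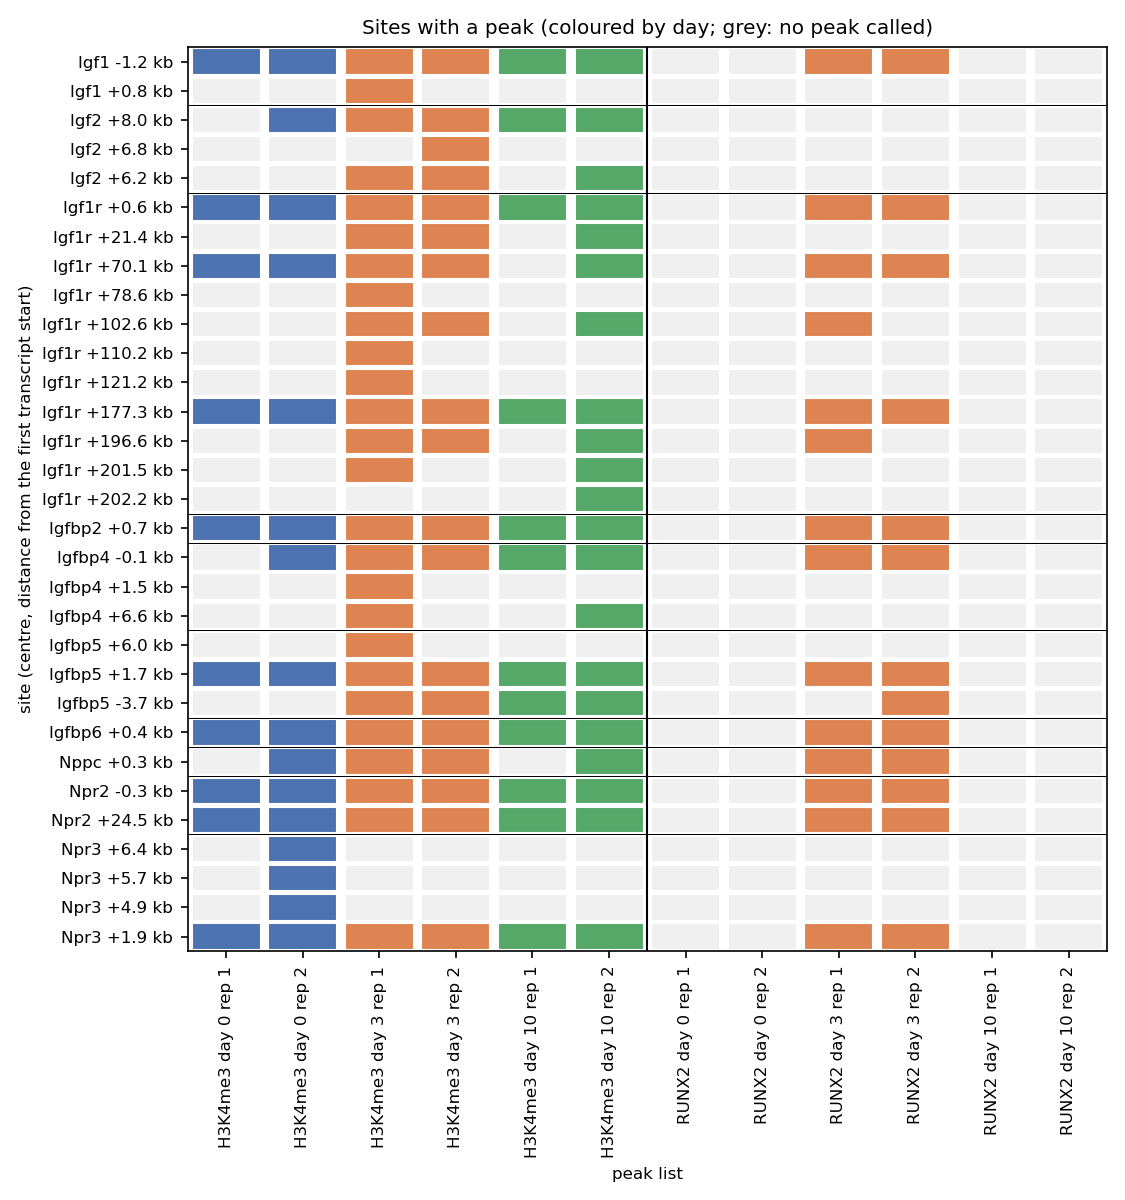
Presence of a peak at each of the 31 stretches (rows, named by gene and by the distance of the centre from the first transcript start in kb) in each of the 12 lists (columns). Coloured cells hold a peak, grey cells none. The start peaks fill most H3K4me3 columns, RUNX2 peaks appear on day 3 only, and the Igf2 rows hold no RUNX2 peak.

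RUNX2 peaks were present on day 3 at 9 of the 10 genes in both calls, where 61.1% of all protein-coding genes had them. Igf2 had none in either call. Among genes with H3K4me3 in both day 3 libraries, 94.4% had RUNX2 in both calls and 4.17% in neither, so that 9 of 10 is near the share over all marked genes. The RUNX2 lists of day 0 (108 and 102 peaks) and day 10 (101 and 97) held no peak at any member (0 of 10, 0.0274 and 0.0183% of all genes in both libraries), which at lists of this length does not show that RUNX2 was absent. All 15 RUNX2 regions present in both calls at the members overlapped an H3K4me3 region of both day 3 libraries (97.6% of 17401 regions in the genome). In the other direction 13 of 24 H3K4me3 regions overlapped RUNX2 (74.6% of 21011).

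All 9 stretches with H3K4me3 in all 6 lists carried RUNX2 in both calls, as 99.8% of such stretches in the genome did. RUNX2 was in both calls at 12 of the 18 stretches with H3K4me3 in both day 3 libraries (82.2% in the genome) and in neither call at 3 (2091 of 17376 in the genome). At the 5 stretches gained from day 0 to day 3 both calls agreed on a RUNX2 peak at 0 (27.4%). The Igf1r stretches at 102.6 and 196.6 kb had one in the replicate 1 call only, the stretch upstream of Igfbp5 in the replicate 2 call only, and the Igf2 stretch and the Igf1r stretch at 21.4 kb in neither (2 of 5, 51.7%). Inside Igf1r, the stretches at 70.1 and 177.3 kb carried RUNX2 in both calls, with 38 and 71 fragments at the summit.

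The height of the RUNX2 summits differed between members. It was 103 fragments at the Igf1r start, 94 at Igfbp5, 75 at Igfbp6, 73 at Npr3, 71 at Npr2, 54 at Igf1, 47 at Igfbp2, 32 at Igfbp4 and 27 at Nppc, beside medians of 65.0 and 69.0 over the peaks of the 2 lists. Since both calls gave the same fragments, these values have no replicate spread. The fold enrichment depended on the call. At the Igf1r start it was 3.52 against a background of 28.55 fragments in replicate 1 and 12.9 against 7.05 in replicate 2. At Igfbp5 the folds were 3.55 and 14.5 with backgrounds of 25.76 and 5.53, and at Npr3 they were 3.29 and 13.7 with 21.46 and 4.40. At the other 9 of the 12 shared stretches the replicate 1 background was between 3.53 and 9.47. The 3 genes with the high background were those with the widest H3K4me3 peaks. Nppc went the other way, with a fold of 6.18 in replicate 1 and 4.34 in replicate 2. So did the Igf1r stretches at 70.1 kb, with 6.87 and 4.98, and at 177.3 kb, with 8.16 and 7.99.

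**Figure D4:**
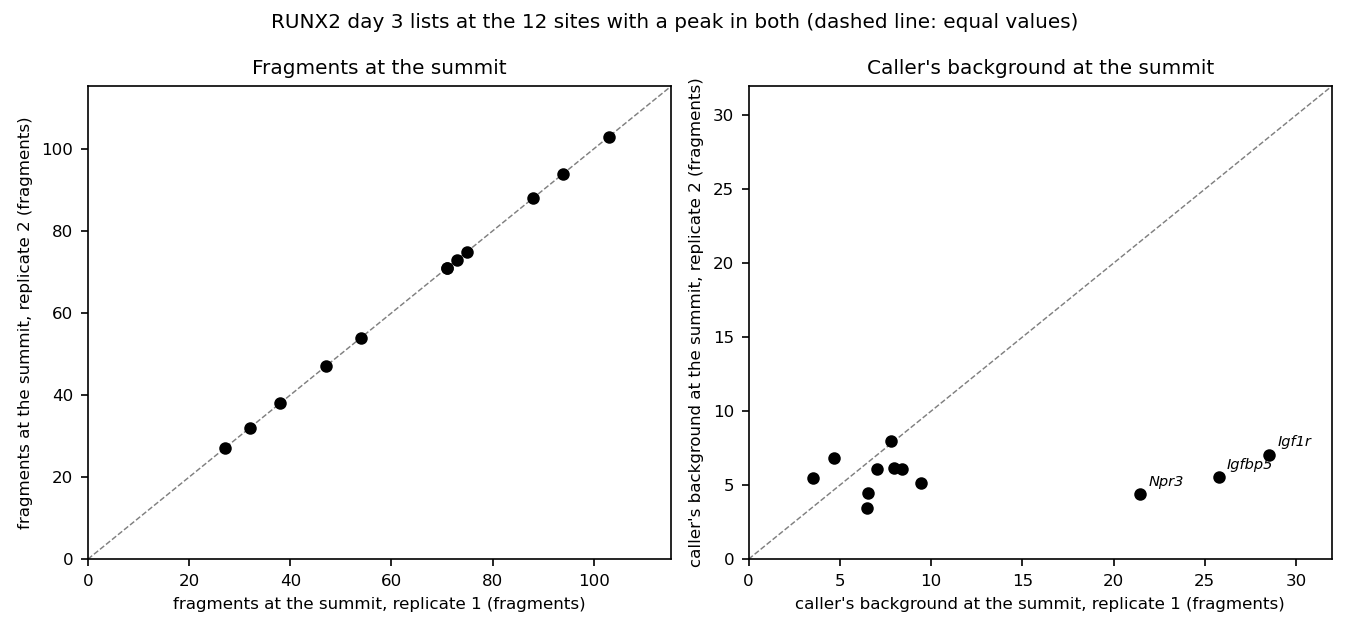
RUNX2 day 3 values of replicate 2 (vertical axes) against replicate 1 (horizontal axes) at the 12 stretches with a peak in both calls: fragments at the summit on the left, the caller's background in fragments on the right, with dashed lines of equal values. All 12 fragment numbers lie on the line, and the replicate 1 background reaches 28.55 at Igf1r, 25.76 at Igfbp5 and 21.46 at Npr3.

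Summit positions were compared in the same way for both antibodies. The RUNX2 summits of the 2 calls lay within 10 bp of each other at 11 of the 12 stretches (92.3% of 14632 in the genome), with a median distance of 0.5 bp. The H3K4me3 summits of the 2 day 3 libraries lay within 10 bp at 2 of 18 stretches (8.01% of 17376), with a median of 84.5 bp.

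Of the other genes of the IGF pathway, 18 of 24 listed had H3K4me3 within 1 kb of a start in all 6 lists (48.9% of all genes) and RUNX2 in both day 3 calls. They included Igf2r, the receptor that clears IGF2, Insr, the insulin receptor, the adaptors Irs1 and Irs2, Igfbp3, the main carrier in serum, and Pappa, which encodes PAPP-A. At Irs1 the start peak was 2351 and 4855 bp wide on day 0. It was 10746 and 10117 bp wide on day 3 and 8838 and 10728 bp on day 10. Every day 3 and day 10 peak was wider than both day 0 peaks. The same held at Igf2r, Insr, Irs2, Pik3r1, Foxo1 and Igf2bp2 of this list, and the share over all genes was not counted. At Pik3r1 the replicate 2 peak of day 0 lay apart from that of replicate 1. Peak widths are not corrected for library depth. No H3K4me3 peak was called within 1 kb of a start in any list at 5 of the 24 (40.1% of all genes). These were Igfals, the acid-labile subunit of the serum IGF complex, Igfbp1, a liver binding protein, and Pappa2, a protease of IGF-binding proteins. The others were Stc1, a stanniocalcin, and Grb10, an adaptor that restrains IGF1R and insulin receptor signalling. Gains and losses between days numbered 0 of 24. Igf2bp3, an RNA-binding protein of Igf2 mRNA, was the remaining gene, with peaks in replicate 2 of day 0, both libraries of day 3 and replicate 2 of day 10, and no RUNX2.

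Of 14 listed genes of natriuretic peptide and cGMP signalling, 8 had H3K4me3 within 1 kb of a start in all 6 lists (48.9% of all genes). All 8 had RUNX2 there in both day 3 calls. They were the receptor gene Npr1, the cGMP-dependent kinases Prkg1 and Prkg2, the proprotein convertase Furin, the peptidase Mme, the phosphodiesterases Pde5a and Pde2a, and Fgfr3. The start peak of Prkg2, the kinase that carries the cGMP signal in growth plate chondrocytes, was 672 and 673 bp wide on day 0, 1951 and 1615 bp on day 3 and 2247 and 2539 bp on day 10. The days did not overlap in this gene's width, in the order day 0, day 3, day 10. Fgfr3 had the same order, with 1536 and 1785 bp on day 0, 2787 and 2182 bp on day 3 and 3303 and 3101 bp on day 10. These widths carry no correction for library depth. By rank of −log10 q in its own list, the Fgfr3 start peak stood at percentiles 83.1 and 88.4 for day 0. The day 3 ranks, 86.5 and 95.4, overlapped those of day 0 and those of day 10 (89.2 and 97.3). The Prkg2 ranks kept the order without overlap: 29.2 and 25.6 (day 0), 62.5 and 45.9 (day 3), 85.5 and 74.7 (day 10). The share of all genes with such an order, in width or in rank, was not counted. The other 6 genes had no H3K4me3 peak within 1 kb of a start in any list (40.1% of all genes). They were Nppa and Nppb, the cardiac natriuretic peptides, and Corin, the protease that processes their precursors, with Ostn, a ligand of NPR3. The last were the soluble guanylyl cyclase subunits Gucy1a1 and Gucy1b1.

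The presence or absence of start peaks over the 12 lists was compared between members and all protein-coding genes. Igf1, Igf1r, Igfbp2, Igfbp6, Npr2 and Npr3 shared their pattern, all 6 H3K4me3 lists and both RUNX2 calls of day 3, with each other and with 10694 genes in all. Igfbp4 and Igfbp5, missing from replicate 1 of day 0, had a pattern of 659 genes. The pattern of Nppc, missing from replicate 1 of days 0 and 10, was that of 210 genes, and Igf2, with 5 H3K4me3 lists and no RUNX2, had that of 9. None of the 38 listed pathway genes had the pattern of Igfbp4 and Igfbp5, of Nppc or of Igf2. Igf2bp3 differed from Nppc only in the RUNX2 calls, a pattern of 141 genes.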

How the data were processed

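ChIP-seq of H3K4me3 and RUNX2 in ATDC5 cells on days 0, 3 and 10 was deposited as 12 peak lists, 1 per library. Reads of 75 bp (per the labels) went through Trim Galore, FastQC, MACS2 and HISAT2 2.2.0, as the submitters' processing notes list them without an order. Not given in the sources used here are the settings, the removal of duplicates and the control of each call. The notes name GRCm39, but 35.2 to 67.5% of H3K4me3 summits lay within 1 kb of a RefSeq start of GRCm38.p6 and 2.51 to 3.11% after a shift of 20 kb, so the lists were read as GRCm38. The deposited score is 10 times the −log10 q without decimals. The fold enrichment at the summit is a ratio to the local background made by the authors' caller, and the −log10 p and −log10 q are the authors' values too, used only within a list. Summit offsets were taken as deposited.

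Peaks on assembled chromosomes were used, and an overlap of 1 bp counted. Gene spans and starts came from RefSeq (GRCm38.p6). Where the table gave no start, both gene ends were used. Peaks of all lists that touched were joined into stretches. Total reads are unknown here. From the fold, taken as (fragments + 1) / (background + 1), and the Poisson p-value, fragments at the summit were solved. They came out whole within 0.001 of the −log10 p for 20095 of 20863 peaks in the list with the lowest share. This recovery, the covered length as a share of the list, and the gained stretches were chosen after seeing the data. The members and lists were chosen with earlier results of these data known. All 10 members are named, with every listed pathway gene that lacked H3K4me3 within 1 kb of a start in all lists or whose call there differed between days. Each whose 12-list pattern matched that of a member with differing calls between days was to be named too (none did). Irs1 and Prkg2 were singled out after their values were seen, and other genes are named as examples. No test was made: an exact permutation of 2 against 2 libraries cannot go below p = 0.33, and no model was fitted to covered lengths or fragments. Counts stand beside the share of all genes instead. Scripts (Python 3.11.15, numpy 2.4.6, pandas 2.3.3, matplotlib 3.10.9) were tested on simulated data.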

Additional observations from a re-analysis of the deposited data

How the results depend on the processing

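Of 176 alternative values for 25 results, 148 stayed within 1.5 times the main count and 28 did not. Some of the 148 had little room to differ. RUNX2 counts of days 0 and 10 came from lists of 97 to 108 peaks, and the 2 RUNX2 calls of day 3 count as 1 library. Within that limit, the 7 genes with H3K4me3 in both day 0 libraries became 10 without replicate 1 and 5 at a −log10 q of at least 5. No paired analysis was possible because no label ties the replicates of different days to each other, and no test was applied to these counts and lengths. At a −log10 q of at least 5, Igfbp4 became a gain from day 0 to 3 and to 10 (1 gene each), 2 genes were lower on day 10 than on day 3 in covered length, and 3 stretches were gained. With equal numbers of top peaks, Nppc was lost from day 3 to 10 (1), Igfbp4 was gained from day 0 to 10 (1), the genes with greater covered length on day 3 than on day 0 fell to 4 (Igfbp2, Igfbp6, Nppc and Npr2), 3 were lower on day 10 than on day 3, and 0 stretches were gained. Without the 5 kb extension 2 genes were lower on day 10 than on day 3. As a share of the list's covered length, 2 genes were higher and 1 lower on day 3 than on day 0, 2 higher and 2 lower on day 10 than on day 3, and 1 lower on day 10 than on day 0. Leaving out 1 library at a time gave 0 to 3 gains from day 0 to 3 (3 without replicate 2 of day 0: Igf2, Igfbp4 and Nppc), 0 to 2 from day 0 to 10 (2 without the same library) and 0 to 1 losses from day 3 to 10 (Nppc, without replicate 2 of day 10). Counts of genes by covered length ran from 0 to 1 lower on day 3 than on day 0 (1 without replicate 1 of day 0), 0 to 2 lower on day 10 than on day 0 (2 without that library or without replicate 2 of day 10), 3 to 8 higher on day 10 than on day 0 (7 without replicate 2 of day 0, 8 without replicate 1 of day 10), and 0 to 10 lower and 0 to 4 higher on day 10 than on day 3, reaching 6 lower when replicate 2 of day 3 was left out, 10 lower when replicate 2 of day 10 was and 4 higher when its replicate 1 was. Gained stretches ran from 5 to 13, reaching 13 when replicate 2 of day 3 was left out and 8 when replicate 2 of day 0 was. The cause was not tested, except that fewer libraries make the definition easier to meet. Every peak is limited by the unknown depth of its library.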
